A study of Mus musculus with 12 samples.

Results

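The 48 genes described here act in mitosis: they encode the cyclins and kinases that start it, the chromosomal passengers, the spindle checkpoint and the anaphase-promoting machinery, the kinetochore, the spindle motors and the proteins that shape mitotic chromosomes. They were taken by gene symbol from the deposited table of gene counts, which lists 12483 genes. The match by symbol uses no measured value, but the list itself was chosen with earlier results of these data known. All 48 were present and all 48 passed the filter on low counts, among 12231 genes tested. The study sequenced RNA from RAW264.7 cells, a mouse macrophage line, in which CRISPR constructs had been aimed at both sides of a site named NRE1. The labels do not say what NRE1 is, and no gene in the table carries that name, so the deletion could not be checked from the counts. Cells carrying both constructs were picked by their GFP and puromycin markers and grown from single cells into clones, of which 3 are labelled wild type (WT, clones 1, 2 and 3) and 3 as lacking the site (KO, clones 1A, 1B and 2). Each clone gave 1 library from medium alone and 1 after 6 h with LPS, a bacterial cell wall component, at 10 ng/mL plus interferon gamma, a lymphocyte cytokine, at 50 ng/mL, written LPS/IFN-gamma below. The 4 groups therefore hold 3 libraries each: WT in medium, WT under LPS/IFN-gamma, KO in medium and KO under LPS/IFN-gamma. All are clones of 1 immortal line, and how clones 1A and 1B are related is not stated, so the KO groups may hold fewer than 3 independent clones.

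A cell enters mitosis when B-type cyclins switch on the kinase Cdk1, which condenses chromosomes and lets the spindle form. The spindle checkpoint holds the cell at metaphase until every kinetochore is attached to microtubules; the anaphase-promoting complex then marks securin and cyclin B for destruction, separase cuts the cohesin that joins sister chromatids, and motors and the contractile ring complete division. Most of these genes are transcribed in a wave that peaks in G2 and mitosis, after the wave of DNA replication genes. Its timing is controlled by the DREAM complex and by MuvB with B-Myb and Foxm1. In dividing macrophages, inflammatory activation and interferon gamma are known to slow proliferation.

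Total counts per library ran from 10624591 to 14388590, and mitochondrial genes took 1.24 to 2.53% of them. Factors that scale each library to the others (TMM) lay between 1.096 and 1.172 in medium and between 0.856 and 0.918 under LPS/IFN-gamma. All 12 macrophage markers examined were listed, with a summed level of 6170 to 22400 CPM (library-scaled counts) over the 12 libraries. None of the 7 lymphocyte, 4 fibroblast or 4 epithelial markers was in the table, 1 of 5 neutrophil markers was, and its level did not exceed 2.43 CPM. Of 4 dendritic cell markers 3 were listed, summing to 1.47 to 25.6 CPM. The weakest of the 48 genes still had 4292 counts over all libraries, so counting error was small beside the spread between clones. Levels are in CPM and, in lists of 3, always run over WT clones 1, 2 and 3 or KO clones 1A, 1B and 2. Changes are log2 fold changes ± SE, and a gene was called when its Benjamini-Hochberg adjusted p from edgeR's quasi-likelihood test, taken over all 12231 genes, was below 0.05.

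Under LPS/IFN-gamma the mitosis genes fell broadly in both genotypes. In WT clones 32 of the 48 fell, none rose and 16 did not pass the test, where 23.6% of all genes were called lower and 23.8% higher. In KO clones 37 fell, none rose and 11 did not pass, where 27.6% of all genes were called lower and 26.7% higher. At an unadjusted p below 0.05 the counts were 38 in WT (54.6% of all genes) and 41 in KO (59.7% of all genes). DESeq2 called 34 lower in WT, 38 lower in KO and none higher. Over all 12231 genes it called 2958 lower and 3134 higher in WT, and 3347 lower and 3459 higher in KO. The median log2 fold change of the 48 was -0.90 in WT (quartiles -1.13 and -0.62) and -0.95 in KO (quartiles -1.29 and -0.72), against -0.01 over all genes in each. The fitted change was below 0 for 47 of the 48 in each genotype, against 50.7% of all genes in WT and 50.6% in KO. Fitted falls passed 2-fold for 19 of the 48 in WT and 23 in KO, against 13% and 16.4% of all genes. In bulk RNA, fewer cells in mitosis and less RNA per mitotic cell cannot be told apart. The mitosis genes together made up 1.24, 0.885 and 1.36% of all counts in WT medium and 0.625, 0.321 and 0.552% under LPS/IFN-gamma. In KO clones they made up 1.35, 1.38 and 1.20% in medium and 0.582, 0.583 and 0.389% under LPS/IFN-gamma. In both genotypes the highest stimulated share lay below the lowest share in medium. These are shares of raw counts without TMM scaling, a scale on which the median of all genes also fell (last section).

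**Figure D1:**
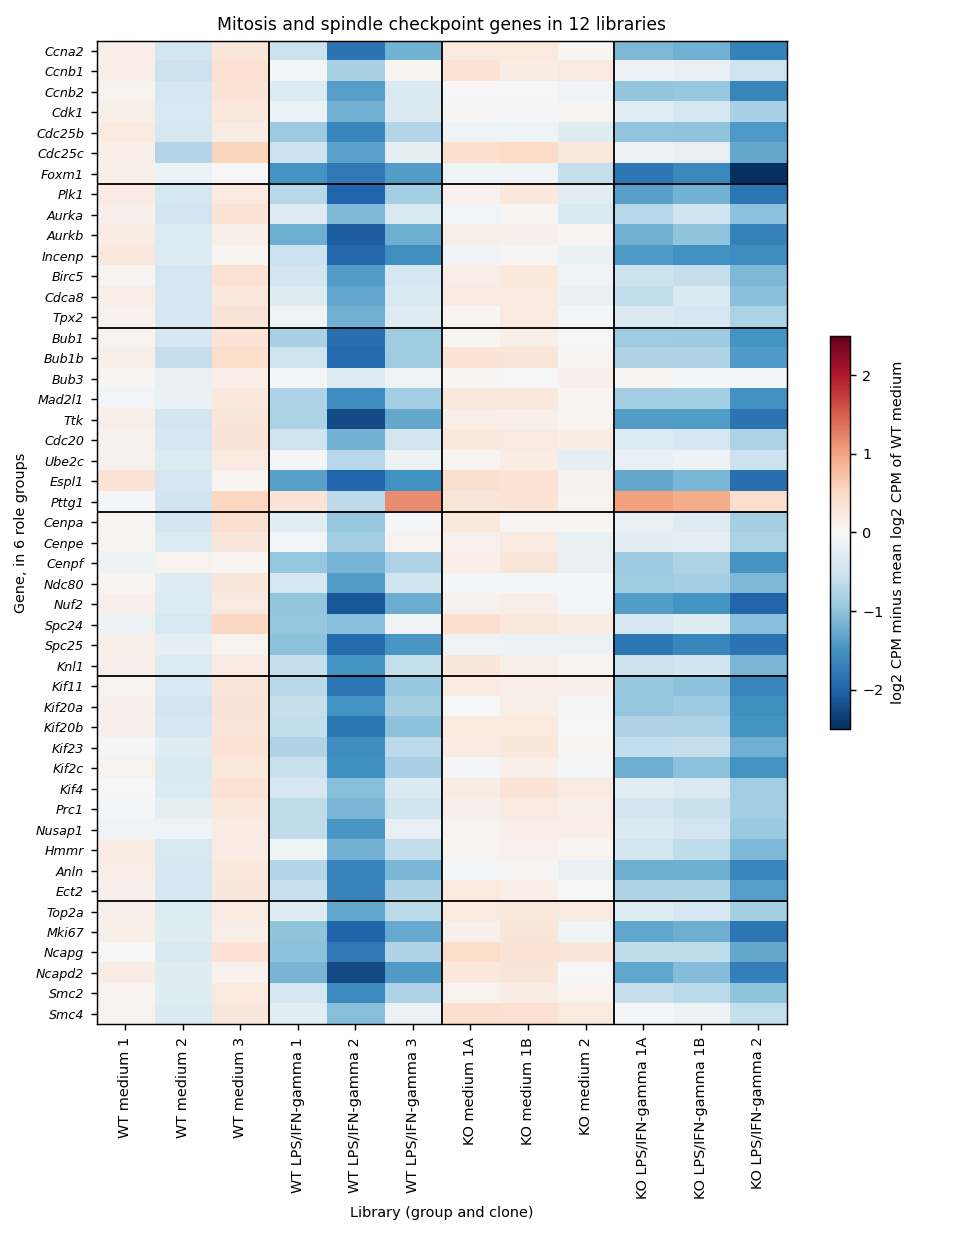
Level of each of the 48 mitosis genes (rows, in 6 role groups) in each of the 12 libraries (columns), as log2 CPM minus that gene's mean in WT medium. Medium libraries sit near or above 0 apart from WT clone 2, and LPS/IFN-gamma libraries sit below 0 for most genes, lowest in WT clone 2 and KO clone 2.

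With each clone's 2 libraries treated as a pair (clone as a block), 46 of the 48 were called lower in WT and 46 in KO, against 31.4% and 34% of all genes, and 1 (Pttg1) was called higher in KO. None was called higher in WT, where 29.8% of all genes were, and 32.1% were called higher in KO. The paired test compares each clone with itself, so steady differences between clones leave its error: the common coefficient of variation was 11.7% in place of 23.6%. With group means removed, the correlation across the 48 genes between the 2 libraries of a clone was 0.61, 0.55 and 0.62 in WT and 0.07, 0.43 and 0.40 in KO, lowest in KO clone 1A; genes are not independent replicates. The genes lower in both genotypes in the unpaired test numbered 32, with none lower in WT alone. Lower in KO alone were 5 (Hmmr, Nusap1, Cdca8, Ccnb2 and Spc24). Over all 12231 genes, 21.1% were lower in both, 301 genes in WT alone and 796 in KO alone. Of the 16 genes not called in WT, 11 were called in neither genotype: Ccnb1, Cdk1, Cdc25c, Aurka, Tpx2, Bub3, Ube2c, Pttg1, Cenpa, Cenpe and Smc4.

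**Figure D2:**
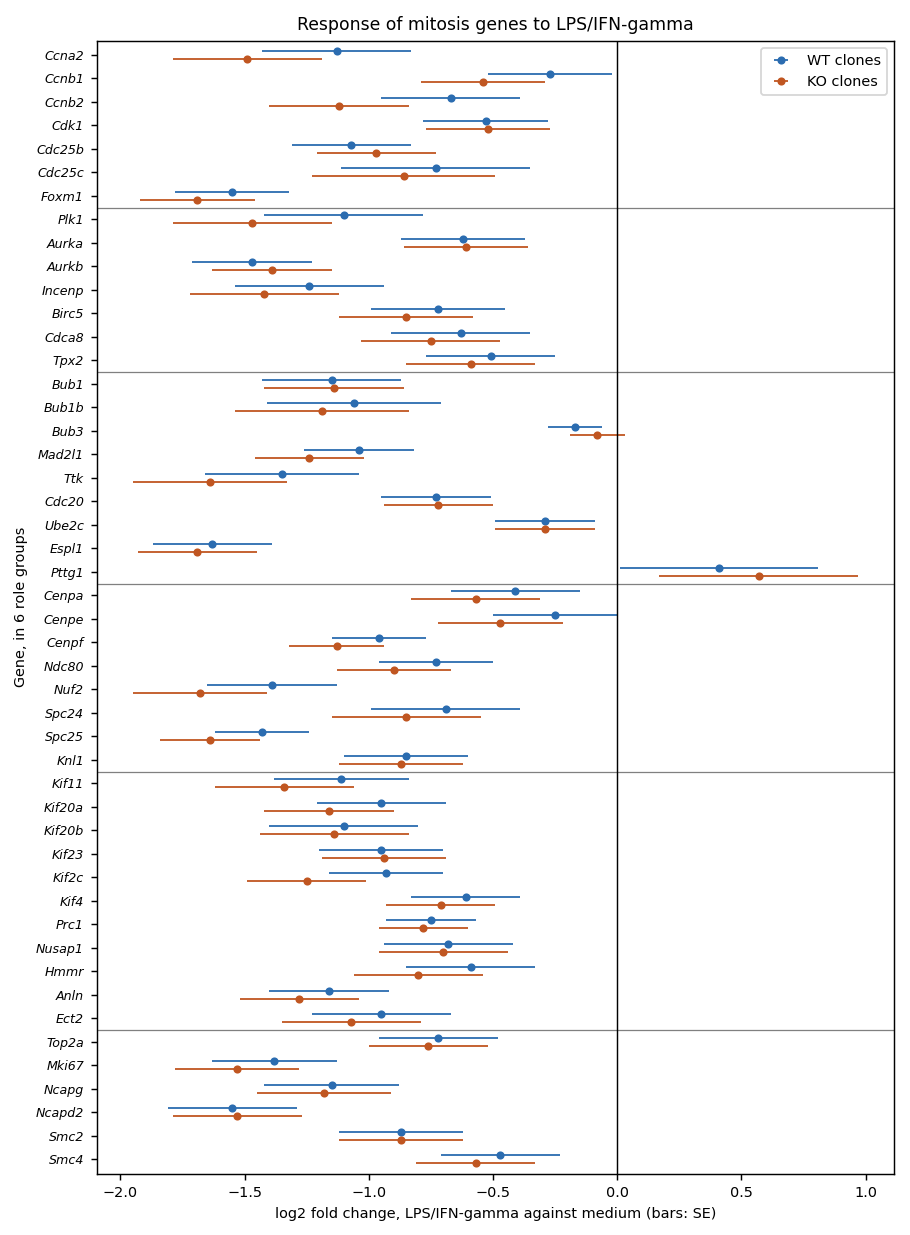
Fitted log2 fold change under LPS/IFN-gamma against medium for each mitosis gene, WT clones in blue and KO clones in orange, with bars of ± 1 SE. Of the 48 genes, 47 lie below 0 in each genotype, from Espl1 at -1.63 in WT to Bub3 at -0.17, and Pttg1 alone lies above 0.

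Promoter sequence was read for the mitosis genes because they fell together and because transcription in G2 and mitosis is known to depend on a short element near the start of transcription, the cell cycle genes homology region, and on CCAAT boxes bound by NF-Y. Windows of 250 bases before to 50 bases after the start, from RefSeq on GRCm38.p6, were given for 39 of the 48; a gene with several windows was counted once, as holding a match when any window did. The letters TTTGAA or TTCGAA (the first reads TTCAAA on the other strand, and the second is its own reverse complement), searched on both strands, were found for 32 of these 39 genes (82.1%), against 10 of 45 DNA replication and S phase genes (22.2%) and 5854 of all 27025 genes with a window (21.7%). Of the 32, 16 had a match before the start and 16 had matches at or after it only, among them Anln, Aurka, Plk1, Spc25 and Ttk. The nearest match before the start began within 30 bases of it in 8 genes and 43 to 188 bases before it in the other 8, which include Mki67, Ncapd2 and Bub1b. CCAAT, or ATTGG on the other strand, was found for 29 of 39 mitosis genes (74.4%), 26 of 45 S phase genes (57.8%) and 41.1% of all genes. A window with both kinds of match was found for 27 of 39 (69.2%), 6 of 45 (13.3%) and 8.61% of all genes. An E2F-type run, TTTNNCGC on either strand, was found for 5 of 39 (12.8%), 18 of 45 S phase genes (40%) and 5.93% of all genes. A match to these letters is a description and not a shown binding site. Stretches running from 110 to 4 bases before the start are printed 5′ to 3′ on the gene's own strand for 7 of the 8 mitosis genes with a match within 30 bases before the start. They were picked for that position and so do not stand for the 39, and their responses run from Espl1, with the steepest fall in WT, to Cdk1 and Ube2c, which did not pass the test. Capitals mark TTTGAA or its reverse complement TTCAAA, and CCAAT or ATTGG. The last line is the replication gene Mcm6, where capitals mark the TTTNNCGC matches instead, 2 of which overlap. The marking therefore differs between lines and does not show what a stretch lacks. The Mcm6 stretch also holds ATTGG, unmarked, and the Cdk1 stretch holds an unmarked TTTNNCGC match that begins 29 bases before the start.
Espl1, chr15:102296183-102296289, plus strand: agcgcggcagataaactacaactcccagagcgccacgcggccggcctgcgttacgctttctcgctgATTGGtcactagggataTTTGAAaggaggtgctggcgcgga
Ncapg, chr5:45669815-45669921, plus strand: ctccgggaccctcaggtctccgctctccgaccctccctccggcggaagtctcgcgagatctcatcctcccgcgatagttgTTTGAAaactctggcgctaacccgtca
Kif11, chr19:37376272-37376378, plus strand: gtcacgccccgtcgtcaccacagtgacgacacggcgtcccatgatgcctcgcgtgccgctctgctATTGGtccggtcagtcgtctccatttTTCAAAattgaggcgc
Top2a, chr11:99024193-99024299, minus strand: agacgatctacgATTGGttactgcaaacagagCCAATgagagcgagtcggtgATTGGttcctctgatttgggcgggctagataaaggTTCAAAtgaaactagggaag
Cdk1, chr10:69352916-69353022, minus strand: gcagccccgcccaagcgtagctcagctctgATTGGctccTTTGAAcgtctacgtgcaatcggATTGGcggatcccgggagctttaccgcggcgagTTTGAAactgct
Cdc20, chr4:118437347-118437453, minus strand: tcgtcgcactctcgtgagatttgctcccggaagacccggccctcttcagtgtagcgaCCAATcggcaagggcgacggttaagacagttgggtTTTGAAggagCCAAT
Ube2c, chr2:164769819-164769925, plus strand: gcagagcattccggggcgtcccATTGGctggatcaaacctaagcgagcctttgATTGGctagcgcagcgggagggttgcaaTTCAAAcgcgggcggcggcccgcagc
Mcm6, chr1:128359709-128359815, minus strand: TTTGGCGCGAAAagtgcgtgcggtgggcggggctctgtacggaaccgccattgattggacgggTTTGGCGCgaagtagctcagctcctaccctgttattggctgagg
In these 7 stretches the match nearest the start begins between 15 (Cdk1) and 30 (Ncapg) bases before it, and every stretch but that of Ncapg also holds at least 1 CCAAT box.

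Among the cyclins and regulators of the Cdk1 switch, 3 of 7 fell in WT (median change -0.73) and 4 of 7 in KO (median -0.97); in the paired test all 7 were lower in each genotype. Foxm1 (chr6:128362967-128376146), the forkhead transcription factor that drives G2 and mitotic genes, was at 75.8, 61.9 and 68.0 CPM in WT medium and at 24.4, 19.7 and 26.1 CPM under LPS/IFN-gamma. In KO clones Foxm1 was at 63.7, 64.2 and 45.4 CPM in medium and 19.4, 22.4 and 11.6 CPM under LPS/IFN-gamma. The ranges of the 2 conditions did not overlap in either genotype, and Foxm1 fell by 2.93-fold in WT (log2 -1.55 ± 0.23, adjusted p = 0.00027) and 3.24-fold in KO (log2 -1.69 ± 0.23, adjusted p = 0.00012), the smallest p of this group in each. The S phase and mitotic cyclin Ccna2 was at 417, 271 and 456 CPM in WT medium and at 256, 104 and 164 CPM under LPS/IFN-gamma. KO clones had Ccna2 at 434, 439 and 386 CPM in medium and 171, 161 and 116 CPM under LPS/IFN-gamma. Every stimulated library was again below every medium library of its genotype, and Ccna2 fell in WT (-1.13 ± 0.30, adjusted p = 0.01) and in KO (-1.49 ± 0.30, adjusted p = 0.0018). Cdc25b, a phosphatase that activates Cdk1, fell in both (-1.07 and -0.97), whereas its relative Cdc25c, at the lowest level per length of all 48 genes (6.94 CPM per kb of exon in WT medium), had changes of -0.73 and -0.86 that did not pass.

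Cdk1 and Ccnb1 had smaller fitted changes than Foxm1 or Ccna2. Cdk1, the mitotic kinase, was at 219, 149 and 235 CPM in WT medium and 177, 85.6 and 153 CPM under LPS/IFN-gamma. In KO clones Cdk1 stood at 202, 189.5 and 207 CPM in medium and 162, 144 and 112 CPM after stimulation. The WT ranges overlapped, with clone 2 in medium below clones 1 and 3 after stimulation, and the KO ranges did not. The changes of -0.53 in WT and -0.52 in KO did not pass the unpaired test (adjusted p = 0.11 and 0.11) but passed with clones paired (adjusted p = 0.0039 and 0.005). Ccnb1, the main mitotic cyclin partner of Cdk1, was at 74.2, 45.9 and 86.5 CPM in WT medium and 65.4, 38.0 and 68.2 CPM under LPS/IFN-gamma. For KO clones Ccnb1 was at 84.0, 75.9 and 78.1 CPM in medium and 60.0, 57.7 and 46.5 CPM after stimulation. Each clone had less Ccnb1 after stimulation, yet the changes of -0.27 and -0.54 passed only with clones paired (adjusted p = 0.031 and 0.00065). Ccnb2, the second B-type cyclin, was at 144, 99.9 and 171 CPM in WT medium and 106, 51.9 and 103 CPM under LPS/IFN-gamma. Its KO libraries gave 135, 136 and 125 CPM in medium and 68.3, 70.1 and 43.4 CPM after stimulation. Ccnb2 fell in KO (-1.12 ± 0.28, adjusted p = 0.0068), and in WT its change of -0.67 ± 0.28 did not pass (adjusted p = 0.073).

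**Figure D3:**
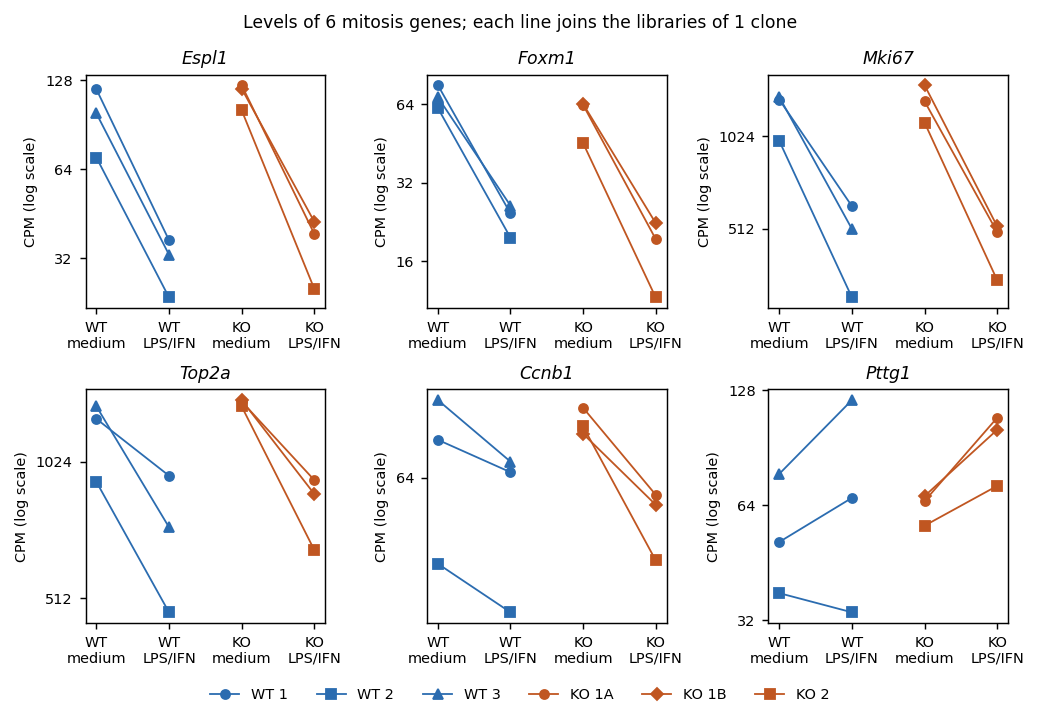
Level in CPM (log axis) of Espl1, Foxm1, Mki67, Top2a, Ccnb1 and Pttg1 in each library, 1 panel per gene, with a line joining the medium and LPS/IFN-gamma libraries of each clone. Espl1, Foxm1 and Mki67 show separate conditions in both genotypes, Top2a and Ccnb1 overlap in WT, Pttg1 goes up in all clones but WT clone 2, and clone 2 is the lowest WT line in each panel.

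Of the mitotic kinases and chromosomal passengers, 4 of 7 fell in WT (median -0.72) and 5 of 7 in KO (median -0.85), and all 7 were lower in each genotype with clones paired. Aurkb (chr11:69045647-69051664), the kinase of the chromosomal passenger complex that corrects faulty attachments, was at 117, 81.6 and 114 CPM in WT medium and at 44.0, 24.6 and 44.3 CPM under LPS/IFN-gamma. Its KO levels were 114, 112 and 109 CPM in medium and 44.6, 51.6 and 31.9 CPM after stimulation. The conditions were separate in both genotypes, and Aurkb fell by 2.77-fold in WT (-1.47 ± 0.24, adjusted p = 0.00058) and 2.61-fold in KO (-1.39 ± 0.24, adjusted p = 0.00065). Incenp, the scaffold of that complex, fell in both (-1.24 in WT and -1.42 in KO). Birc5 (survivin), which brings the complex to centromeres, was at 98.9, 71.5 and 122 CPM in WT medium and 69.6, 36.2 and 71.6 CPM under LPS/IFN-gamma. In KO, Birc5 was at 107, 114 and 90.0 CPM in medium and 65.7, 63.0 and 43.5 CPM after stimulation. The conditions overlapped in WT and not in KO, and Birc5 fell, with log2 changes of -0.72 ± 0.27 in WT (adjusted p = 0.048) and -0.85 ± 0.27 in KO (adjusted p = 0.022). The other subunit, Cdca8 (borealin), passed in KO (-0.75) but not in WT (-0.63). The 4 subunits of 1 complex thus had fitted changes from -1.47 to -0.63 in WT, with SEs of 0.24 to 0.30; differences between subunits were not tested.

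Plk1, the polo-like kinase of mitotic entry and centrosome maturation, was at 65.8, 42.4 and 67.7 CPM in WT medium and 35.7, 14.5 and 31.7 CPM under LPS/IFN-gamma. The KO clones had 61.4, 69.0 and 47.2 CPM in medium and 22.3, 25.4 and 16.3 CPM after stimulation. Plk1 fell, with log2 changes of -1.10 ± 0.32 in WT (adjusted p = 0.015) and -1.47 ± 0.32 in KO (adjusted p = 0.0028), with WT clone 2 and KO clone 2 the lowest stimulated libraries. Aurka, the spindle pole kinase, and its activator Tpx2 did not pass in either genotype, at -0.62 and -0.51 in WT and -0.61 and -0.59 in KO.

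Of the spindle checkpoint and anaphase genes, 6 of 9 fell in each genotype (medians -1.04 in WT and -1.14 in KO). The 3 that did not pass were Bub3, Ube2c and Pttg1. Espl1 (chr15:102296266-102324357), which encodes separase, the protease that opens cohesin at anaphase, was at 119, 70.2 and 98.9 CPM in WT medium and 36.9, 23.6 and 33.0 CPM under LPS/IFN-gamma. In KO clones it was at 123, 120.1 and 102 CPM in medium and 38.8, 42.6 and 25.3 CPM after stimulation. Espl1 fell by 3.09-fold in WT (-1.63 ± 0.24, adjusted p = 0.00035) and 3.23-fold in KO (-1.69 ± 0.24, adjusted p = 2e-04), from a low level of 11 CPM per kb in WT medium. The checkpoint kinase gene Ttk, which encodes Mps1, fell, with log2 changes of -1.35 and -1.64, and Bub1, a second checkpoint kinase, also fell (-1.15 and -1.14). Bub1b (BubR1), a subunit of the mitotic checkpoint complex, was at 333, 202 and 409 CPM in WT medium and 211, 78.7 and 162 CPM under LPS/IFN-gamma. KO clones gave 381, 374 and 311 CPM of Bub1b in medium and 178, 176 and 113 CPM after stimulation. Bub1b fell in WT (-1.06 ± 0.35, adjusted p = 0.028) and in KO (-1.19 ± 0.35, adjusted p = 0.015), and so did Mad2l1, the checkpoint protein Mad2 (-1.04 and -1.24).

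Cdc20, the anaphase-promoting complex activator that the checkpoint holds back, was at 143, 98.2 and 167 CPM in WT medium and 92.9, 58.5 and 94.8 CPM under LPS/IFN-gamma. The KO libraries had Cdc20 at 160.5, 154 and 151 CPM in medium and 105, 100 and 76.8 CPM after stimulation. Cdc20 fell by 1.66-fold in WT (-0.73 ± 0.22, adjusted p = 0.018) and 1.65-fold in KO (-0.72 ± 0.22, adjusted p = 0.016). Ube2c, the ubiquitin-conjugating enzyme that works with the complex, was at 88.7, 64.5 and 95.5 CPM in WT medium and 78.6, 49.9 and 74.5 CPM under LPS/IFN-gamma. For KO, Ube2c was at 85.7, 92.6 and 69.3 CPM in medium and 70.8, 75.1 and 56.0 CPM after stimulation. The conditions overlapped in both genotypes, and the change of -0.29 in each did not pass unpaired (adjusted p = 0.26 in WT and 0.24 in KO) but was called lower with clones paired (adjusted p = 0.009 in each). Of the exon length annotated for Ube2c, 22.8% overlaps Tnnc2 on the other strand, and whether counting used strand is not given in the sources used here.

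Pttg1 and Bub3 lay outside the rule for genes shown by library and were added after their values were seen. Pttg1 (chr11:43420250-43426251), the securin that blocks separase until anaphase, was at 51.3, 37.7 and 77.3 CPM in WT medium and 66.9, 33.6 and 121 CPM under LPS/IFN-gamma. In KO clones Pttg1 was at 65.6, 67.6 and 56.6 CPM in medium and 108, 101 and 71.9 CPM after stimulation. It was higher after stimulation in 5 of 6 clones, with changes of 0.38, -0.17 and 0.64 in WT and 0.72, 0.57 and 0.34 in KO. Unpaired, neither change passed (0.41 ± 0.40 in WT, adjusted p = 0.42; 0.57 ± 0.40 in KO, adjusted p = 0.25), and with clones paired the KO change passed (0.55, adjusted p = 0.0072) and the WT change did not (adjusted p = 0.095). Espl1, the protease that securin inhibits, had the steepest fitted fall in WT of the 48 genes. Bub3, a checkpoint protein that recruits Bub1 and BubR1 to kinetochores, had the smallest changes of the group, -0.17 ± 0.11 in WT and -0.08 ± 0.11 in KO, and passed in neither test (adjusted p with clones paired 0.095 and 0.37).

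Kinetochore and centromere genes fell in 5 of 8 cases in WT (median -0.79) and 6 of 8 in KO (median -0.89), and all 8 were lower in each genotype with clones paired. The 4 subunits of the Ndc80 complex, which binds spindle microtubules, differed in fitted size, a difference that was not tested. Spc25 (chr2:69193895-69206194) was at 77.0, 59.0 and 74.4 CPM in WT medium and 34.4, 18.4 and 25.4 CPM under LPS/IFN-gamma. KO clones had Spc25 at 65.0, 64.0 and 62.8 CPM in medium and 19.9, 22.6 and 19.3 CPM after stimulation. Spc25 had the smallest p of the 48 genes in both genotypes, falling 2.69-fold in WT (-1.43 ± 0.19, adjusted p = 0.00017) and 3.11-fold in KO (-1.64 ± 0.20, adjusted p = 5.4e-05). Nuf2 fell similarly (-1.39 and -1.68), while Spc24 passed in KO (-0.85) and not in WT (-0.69, adjusted p = 0.085). Ndc80 itself was at 92.7, 72.0 and 109.9 CPM in WT medium and 67.6, 34.1 and 63.7 CPM under LPS/IFN-gamma. Among KO libraries Ndc80 was at 88.1, 88.0 and 86.7 CPM in medium and 48.7, 50.1 and 41.6 CPM after stimulation. Ndc80 fell, with log2 changes of -0.73 ± 0.23 in WT (adjusted p = 0.022) and -0.90 ± 0.23 in KO (adjusted p = 0.0067).

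Knl1, the kinetochore scaffold that gathers checkpoint proteins, fell, with log2 changes of -0.85 in WT and -0.87 in KO, and Cenpf, a large protein of the outer kinetochore, also fell (-0.96 and -1.13). The histone H3 variant that marks centromeres, Cenpa, was at 94.3, 66.3 and 120.2 CPM in WT medium and 76.2, 46.9 and 89.0 CPM under LPS/IFN-gamma. In KO it was at 109.6, 95.3 and 94.5 CPM in medium and 78.7, 72.5 and 51.0 CPM after stimulation. Cenpa did not pass unpaired (-0.41 ± 0.26 in WT, adjusted p = 0.23; -0.57 ± 0.26 in KO, adjusted p = 0.09), nor did the kinetochore motor Cenpe (-0.25 and -0.47).

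The spindle motors and cytokinesis genes fell in 9 of 11 cases in WT (median -0.95) and in all 11 in KO (median -1.07). Kif11, the motor that pushes the spindle poles apart, was at 329.7, 238 and 381 CPM in WT medium and 192, 88.9 and 160 CPM under LPS/IFN-gamma. Its levels in KO clones were 356, 349 and 339 CPM in medium and 160, 152 and 100 CPM after stimulation. Kif11 fell 2.15-fold in WT (-1.11 ± 0.27, adjusted p = 0.0071) and 2.53-fold in KO (-1.34 ± 0.28, adjusted p = 0.002). Kif20a, a motor of the central spindle, was at 340.3, 226 and 391 CPM in WT medium and 209.9, 110.5 and 175 CPM under LPS/IFN-gamma. KO libraries held Kif20a at 314, 342 and 305 CPM in medium and 158, 165 and 107 CPM after stimulation. Kif20a fell in both (-0.95 ± 0.26, adjusted p = 0.011; -1.16 ± 0.26, adjusted p = 0.0033); 29.3% of its annotated exon length overlaps Cdc23 on the other strand.

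Anln (chr9:22332012-22389188), the anillin scaffold of the contractile ring, had the smallest p of the cytokinesis group in each genotype. Anln was at 315, 212 and 338 CPM in WT medium and 169.7, 88.6 and 129 CPM under LPS/IFN-gamma, and in KO at 273, 290.1 and 248 CPM in medium and 121, 121 and 91.4 CPM after stimulation. It fell, with log2 changes of -1.16 ± 0.24 in WT (adjusted p = 0.0023) and -1.28 ± 0.24 in KO (adjusted p = 0.001). Ect2, which activates RhoA at the cell equator, fell, with log2 changes of -0.95 and -1.07, and Kif23, the motor subunit of centralspindlin, which recruits it, also fell (-0.95 and -0.94). Kif2c, a microtubule depolymerase at centromeres, was at 131, 96.0 and 148 CPM in WT medium and 84.2, 42.8 and 70.3 CPM under LPS/IFN-gamma. In KO clones Kif2c was at 119, 135 and 119 CPM in medium and 53.0, 60.1 and 43.5 CPM after stimulation, and it fell in both (-0.93 ± 0.23 in WT and -1.25 ± 0.24 in KO). The midzone bundler Prc1 fell, with log2 changes of -0.75 and -0.78, and the chromosome motor Kif4 also fell (-0.61 and -0.71). Nusap1 and Hmmr, both microtubule-binding spindle proteins, passed in KO and not in WT (-0.70 and -0.80), with WT changes of -0.68 and -0.59; no mitosis gene's response was called different between genotypes.

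Of the genes of chromosome structure, 5 of 6 fell in each genotype (medians -1.01 in WT and -1.02 in KO). Mki67 (chr7:135689784-135716361), which encodes the Ki-67 coat protein of mitotic chromosomes and is the common marker of proliferating cells, was at 1347, 988 and 1373 CPM in WT medium and 607, 306 and 511 CPM under LPS/IFN-gamma. KO clones held 1331, 1502 and 1135 CPM of Mki67 in medium and 500, 522 and 349 CPM after stimulation. Mki67 fell 2.6-fold in WT (-1.38 ± 0.25, adjusted p = 0.0012) and 2.89-fold in KO (-1.53 ± 0.25, adjusted p = 0.00048). Top2a, topoisomerase II alpha, which untangles sister chromatids, was at 1275, 925 and 1359 CPM in WT medium and 954, 476 and 734 CPM under LPS/IFN-gamma. In KO medium Top2a was at 1393, 1403 and 1359 CPM and after stimulation at 934, 870.3 and 654 CPM. Top2a fell, with log2 changes of -0.72 ± 0.24 in WT (adjusted p = 0.028) and -0.76 ± 0.24 in KO (adjusted p = 0.019). These 2 genes had the highest levels per length of the 48, 132 CPM per kb for Top2a and 123 CPM per kb for Mki67 in WT medium; after stimulation Top2a was at 80.1 and Mki67 at 47.2 CPM per kb.

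Condensin I and II share the SMC subunits Smc2 and Smc4, and Ncapd2 and Ncapg belong to condensin I. Ncapd2 (chr6:125168007-125191701) was at 199, 140.4 and 188 CPM in WT medium and 77.9, 36.4 and 65.2 CPM under LPS/IFN-gamma, and in KO at 207, 215 and 172 CPM in medium and 70.8, 81.9 and 52.9 CPM after stimulation. It fell 2.93-fold in WT (-1.55 ± 0.26, adjusted p = 0.00073) and 2.89-fold in KO (-1.53 ± 0.26, adjusted p = 0.00062). Ncapg fell, with log2 changes of -1.15 and -1.18, and Smc2 also fell (-0.87 and -0.87). Smc4 was at 412, 302 and 477 CPM in WT medium and 321, 186 and 352 CPM under LPS/IFN-gamma, with KO levels of 516, 508 and 462 CPM in medium and 383, 356 and 259 CPM after stimulation. Its changes of -0.47 ± 0.24 in WT and -0.57 ± 0.24 in KO did not pass unpaired.

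Clones of 1 genotype differed in the level of most mitosis genes at once. In WT medium, clone 2 was the lowest of the 3 clones for 47 of the 48 genes and clone 3 the highest for 40. Under LPS/IFN-gamma, WT clone 2 was the lowest for all 48 and clone 1 the highest for 30. Among KO clones, clone 2 was the lowest for 40 of the 48 in medium and for all 48 after stimulation, while 1A and 1B shared the highest place with 26 and 22 genes. Every stimulated library lay below every medium library for 30 of the 48 genes in WT (62.5%, against 25.2% of all genes) and for 45 in KO (93.8%, against 35.9%). The KO exceptions were Bub3, Ube2c and Pttg1. For Cdk1 and Ccnb1, WT clone 2 in medium lay below the stimulated libraries of both other WT clones. Without both libraries of WT clone 2, 35 of the 48 were called lower in WT (21.4% of all genes). Without both libraries of KO clone 2, 23 were called lower in KO in place of 37 (20.3% of all genes).

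Within each clone the mitosis genes went the same way. The median change over the 48 was -0.70, -1.19 and -0.90 in WT clones 1, 2 and 3 and -0.88, -0.88 and -1.26 in KO clones 1A, 1B and 2, against -0.01 to -0.03 over all genes. Between 47 and 48 of the 48 were lower after stimulation in every clone, against 50.4 to 51.3% of all genes. No all-gene share of falls past 2-fold within a single clone is given here. Among the 48 genes such falls ranged from 9 in WT clone 1 to 28 in WT clone 2. In KO they ranged from 19 in clone 1A to 35 in clone 2. The median change was therefore largest in the clone with the lowest level in each genotype, and the ranges of WT and KO clones overlapped.

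**Figure D4:**
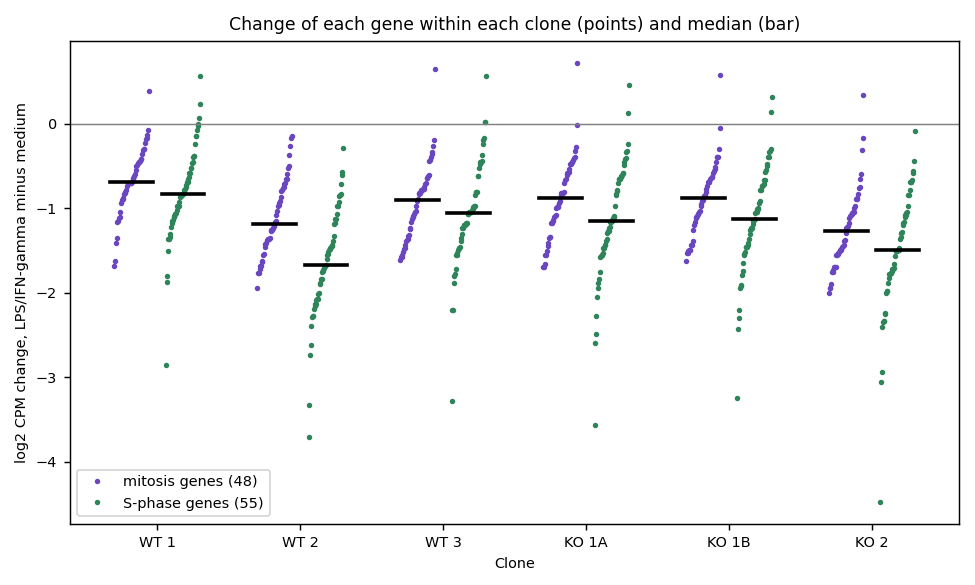
Change of each of the 48 mitosis genes (purple) and of 55 S phase genes (green) within each clone, as log2 CPM under LPS/IFN-gamma minus medium, points ordered by size, with the median of each set as a bar. Medians of mitosis genes run from -0.70 in WT clone 1 to -1.26 in KO clone 2, and the S phase median is lower in every clone.

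The fall of the mitosis genes was set beside that of 55 genes of DNA replication and S phase (helicase, polymerase and nucleotide synthesis genes and their E2F regulators), all of which were tested. In WT 41 of the 55 S phase genes fell and none rose, with a median of -1.05; in KO 47 fell and none rose, with a median of -1.25. Over all genes, 23.6% were called lower in WT and 27.6% in KO. The S phase median was further from 0 than the mitosis median in each of the 6 clones, by 0.14, 0.48 and 0.16 in WT clones 1, 2 and 3 and by 0.27, 0.25 and 0.24 in KO clones 1A, 1B and 2. Within single clones, for which no all-gene share is given, 18, 45 and 34 of the 55 fell past 2-fold in WT. In KO clones falls past 2-fold were seen for 32, 33 and 43. In the group fits they numbered 32 in WT and 35 in KO, against 13% and 16.4% of all genes. No test was made of this difference between the lists, whose genes are not replicates. Every stimulated library lay below every medium library for 43 of 55 S phase genes in WT (78.2%) and 53 of 55 in KO (96.4%), beside the 62.5 and 93.8% of mitosis genes. The all-gene share was also higher in KO, at 35.9% against 25.2% in WT.

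The lower end of the S phase list went past any mitosis gene. Tk1, thymidine kinase, fell, with log2 changes of -3.18 ± 0.46 in WT and -3.71 ± 0.47 in KO, and the helicase subunit Mcm6, whose promoter is printed above, also fell (-2.17 ± 0.36 and -2.46 ± 0.36); both were chosen after their values were seen. Mcm6 was at 497, 486 and 559.8 CPM in WT medium and 174, 48.1 and 121 CPM under LPS/IFN-gamma. Among mitosis genes the steepest fitted falls were -1.63 in WT and -1.64 to -1.69 in KO, the latter range holding Spc25, Ttk, Nuf2, Foxm1 and Espl1. By the rule for other lists, the S phase genes with the smallest p in WT were E2f2 (-2.06 in WT and -2.65 in KO), Rfc2 (-1.10 and -1.60) and E2f1 (-1.83 and -1.83), a pair of E2F factors and a clamp loader subunit. Orc1, of the origin recognition complex and also named after its values were seen, had a change above 0 that did not pass (0.33 and 0.25).

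Other genes of the mitotic machinery were read from lists chosen for function. Their counts stand beside all-gene shares of 23.6% called lower and 23.8% higher in WT, and 27.6% and 26.7% in KO. Of 26 other spindle and cytokinesis genes, 19 fell and none rose in WT (22 and none in KO), led by Pimreg at -1.68 and -1.87 and the chromosome motor Kif18a at -1.67 and -1.80. The 4 other condensin genes all fell in each genotype, among them Ncapd3 of condensin II (-1.59 and -1.73). Of 35 other kinetochore and checkpoint genes, 23 fell and 3 rose in WT, and 27 fell and 5 rose in KO. Nsl1, of the Mis12 complex, fell, with log2 changes of -1.44 and -1.40. Zwint, a kinetochore partner of Knl1 named here because it rose, went from 139, 78.2 and 96.0 CPM in WT medium to 277, 195 and 174 CPM (1.04 ± 0.21, adjusted p = 0.0022) and from 86.4, 86.5 and 88.1 to 249, 217 and 262 CPM in KO (1.48 ± 0.21, adjusted p = 2e-04).

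Of 17 genes of the anaphase-promoting complex and its regulators, 2 fell and 4 rose in WT, and 3 fell and 4 rose in KO, with medians of -0.04 and 0.03. The shares called lower, 11.8% in WT and 17.6% in KO, lay below those of all genes (23.6% and 27.6%). All-gene shares called higher were 23.8% in WT and 26.7% in KO, so the rises in this list are near background. Fbxo5 (Emi1), an inhibitor of the complex in S and G2, fell, with log2 changes of -1.98 ± 0.28 in WT and -2.51 ± 0.29 in KO, and the subunit Cdc26 rose by 0.65 ± 0.12 and 0.60 ± 0.12. Of 15 genes of cohesin and its regulators, 6 fell in each genotype and 3 rose in WT (4 in KO). Esco2, the acetyltransferase that locks cohesin in S phase, fell, with log2 changes of -2.49 ± 0.34 and -2.61 ± 0.34, and the cohesin protector Sgo1 also fell (-1.43 and -1.60). Among 25 other regulators of G2 and mitotic entry, 11 fell and 2 rose in WT and 13 fell and 1 rose in KO; Psrc1, a spindle protein, fell, with log2 changes of -2.09 and -2.21; Ccnf (cyclin F) also fell (-1.54 and -1.58), and E2f8, a repressor of E2F targets, also fell (-2.41 and -2.54). Of 16 tested G1 cyclins, CDK inhibitors and RB family genes, 4 fell and 2 rose in WT and 6 fell and 3 rose in KO. The shares called lower were 25% in WT, near that of all genes, and 37.5% in KO. Rbl2, the p130 pocket protein of DREAM, fell, with log2 changes of -2.26 and -2.23, and Ccnd2, a D-type cyclin, rose by 3.54 and 2.74.

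In medium no mitosis gene passed the test between genotypes. None of the 48 was called in KO against WT, where 0.858% of all genes were called lower and 0.352% higher. None had an unadjusted p below 0.05, where 14.1% of all genes did. DESeq2 also called none of the 48, and 622 of all genes. Fitted differences ran from -0.25 to 0.33 with a median of 0.10, the smallest adjusted p was 0.62, and for 46 of the 48 the 95% interval lay within 2-fold in either direction. The exceptions were Cdc25c (-0.51 to 1.11) and Pttg1 (-0.69 to 1.07). The 3 smallest p-values belonged to Smc4 (0.32, interval -0.21 to 0.85), Ncapg (0.33, -0.25 to 0.91) and Foxm1 (-0.25, -0.73 to 0.23). Mean Foxm1 was 68.6 ± 6.97 CPM in WT medium and 57.7 ± 10.7 CPM in KO medium (SD, n = 3), with KO clones 1A and 1B inside the range of the WT clones and KO clone 2 below it.

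Under LPS/IFN-gamma the genotypes were also not told apart in these genes. None of the 48 was called, where 3.51% of all genes were called lower in KO and 1.13% higher. None had an unadjusted p below 0.05, where 21.2% of all genes did. DESeq2 again called none of the 48, and 1177 of all genes. Differences ran from -0.52 to 0.35 with a median of -0.03, and 44 of 48 intervals lay within 2-fold. The smallest adjusted p was 0.32, and the smallest p-values were those of Ccnb2 (-0.52, interval -1.15 to 0.10), Spc25 (-0.34, -0.77 to 0.09) and Foxm1 (-0.39, -0.89 to 0.11). Foxm1 and Spc25 were fitted lower in KO in both conditions, with changes of -0.25 and -0.13 in medium. Without both libraries of WT clone 2, 2 of the 48 (4.17%) were called lower in KO, near the 3.15% of all genes called lower in that fit: Ndc80 (-0.47 ± 0.11, adjusted p = 0.0498) and Ccnb2 (-0.77 ± 0.18, adjusted p = 0.0495).

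**Figure D5:**
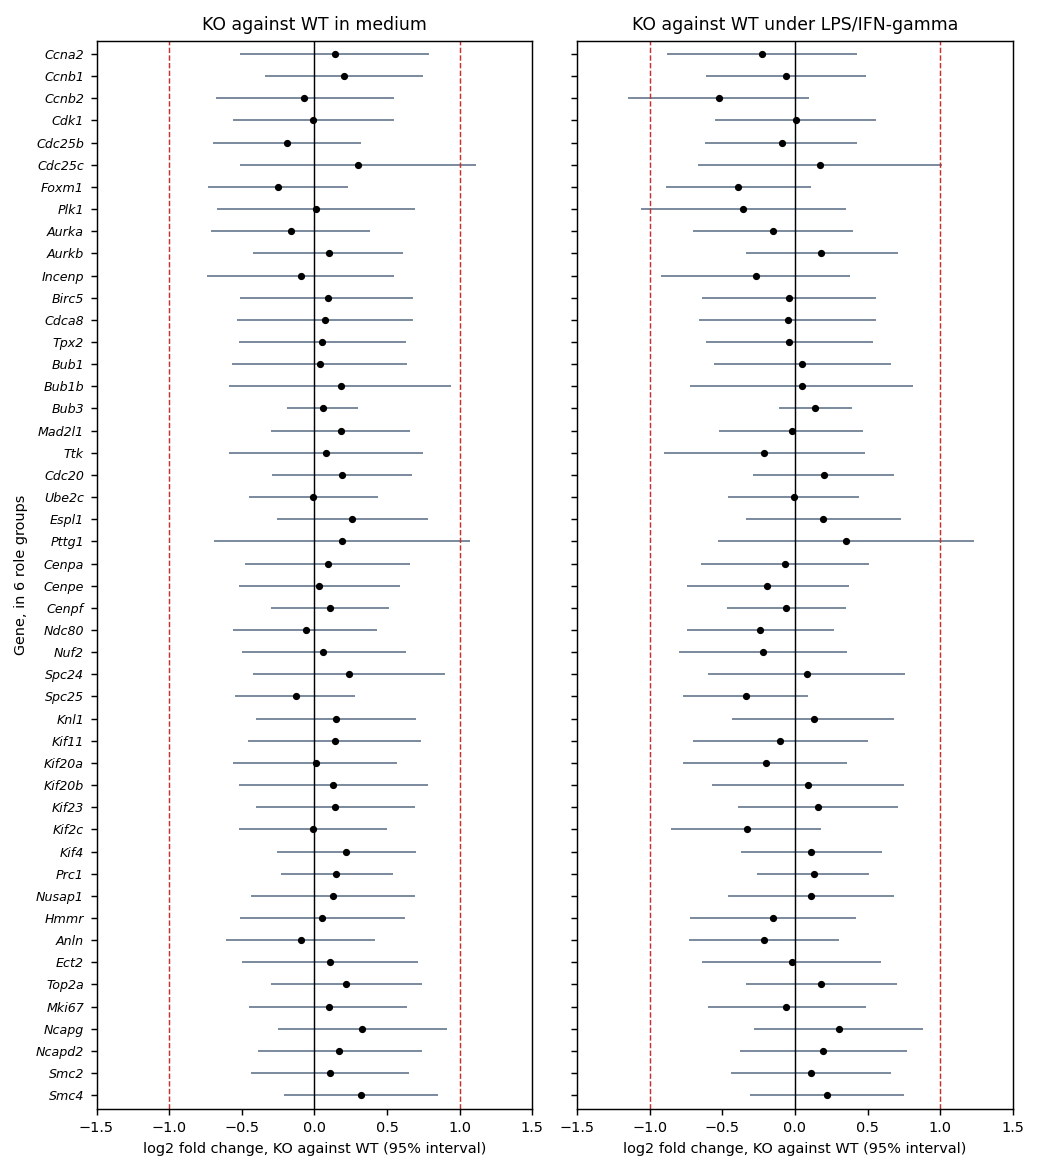
Fitted log2 fold change of KO against WT for each mitosis gene in medium (left) and under LPS/IFN-gamma (right), with 95% intervals and dashed lines at 2-fold. All 48 intervals cross 0 in both panels, and 46 in medium and 44 under LPS/IFN-gamma stay between the dashed lines.

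The size of the response was not shown to depend on genotype. In the interaction test, which asks whether KO clones responded by another amount than WT clones, edgeR called none of the 48 genes and none of all genes tested (0%), and 611 genes (5%) but none of the 48 had an unadjusted p below 0.05. Over all genes DESeq2 called 20 and the paired edgeR test 40. Fitted differences of the 48 ran from -0.46 to 0.16 with a median of -0.12, where a negative value means a deeper fall in KO. They were negative for 37 of the 48 and for 6375 of all 12231 genes. Their intervals lay within 2-fold for 32 of the 48, and for all 48 with clones paired. In the paired test the smallest adjusted p was 0.4, and 1 of the 48 had an unadjusted p below 0.05. The share of all genes below that unadjusted p in the paired test is not given here. The 3 smallest p-values were those of Ccnb2 (-0.46, interval -1.33 to 0.42), Kif2c (-0.32, -1.05 to 0.40) and Ccna2 (-0.36, -1.28 to 0.56). The 5 genes called lower in KO alone are therefore not shown to respond more in KO.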

How the data were processed

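RNA was sequenced from 12 libraries of RAW264.7 clones, 3 in each of 4 groups. The authors deposited 1 table of whole-number gene counts per Ensembl gene for all libraries. Per the submitters' processing notes, the build was mm10 (GRCm38), and DESeq2 is listed with no version or role. How reads were aligned and counted, and with what strand setting, is not given in the sources used here. Gene names, exon lengths and positions came from GENCODE M21 on GRCm38, which named 12305 of 12483 IDs and left 178 unnamed, and promoter sequence from RefSeq on GRCm38.p6.

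From the counts, edgeR 4.0.16 in R 4.3.3 (limma 3.58.1) kept 12231 genes by filterByExpr and left out 252, scaled libraries by TMM, and fitted robust quasi-likelihood models with 1 mean per group over the 12 libraries (8 residual degrees of freedom). P-values were adjusted by Benjamini-Hochberg over all genes tested, with calls below 0.05. The 5 comparisons were the response to LPS/IFN-gamma in WT and in KO clones, KO against WT in each condition, and the difference between the responses. An SE is the log2 fold change over the root of its quasi-likelihood F, and intervals are 95%. CPM use TMM-scaled library sizes, except the summed CPM of cell type markers, which use raw library totals. Levels per kb divide CPM by exon length, and within-clone changes use a prior count of 2. In this fit p-values rest on the spread between clones within a group, and the 2 libraries of a clone count as independent. With clones paired, they rest on the spread left after differences between clones are removed. The groups hold 3 clones at most. The fit was tested on simulated data. The simulated libraries held no differences between clones, so that test does not cover the shifts between clones seen here.

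The labels give each clone a library in both conditions, which pairs them. When group means were removed, the correlation over all genes tested between the medium and stimulated library was 0.64, 0.70 and 0.62 in WT clones 1, 2 and 3 and 0.32, 0.29 and 0.51 in KO clones 1A, 1B and 2. The highest correlation with another clone of the genotype was lower in each case: -0.20, -0.37 and -0.11 in WT and 0.27, 0.18 and -0.35 in KO. The margin was small for KO clones 1A and 1B, so the pairing is less clear there. The paired fit (clone as a block, 4 residual degrees of freedom) is an alternative. The others were RLE size factors, library totals, DESeq2 1.42.0, no filter, only the groups compared, a non-robust fit for the interaction, each library left out, KO 1A and 1B summed, and, added after seeing the data, each genotype without clone 2.

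The members, role groups and other lists were chosen with earlier results of these data known. Genes shown by library were 15 chosen for their roles, the smallest p of each role group in each response, and the 3 smallest p-values in each genotype comparison without a call; of other lists, up to 3 genes with the smallest p per response. Other genes named with values were chosen after these were seen.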

Additional observations from a re-analysis of the deposited data

How the results depend on the processing

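The falls kept their direction under every alternative run for the counts and medians, but the number of mitosis genes called depends on how the spread between clones is estimated. With clones paired as a block, 46 mitosis genes were called lower in each response and 1 higher in KO (Pttg1); the pairing changed no call in the interaction. Fitting only the groups compared left 21 called lower in WT and 1 higher in KO. The number called lower in KO in that fit is not given here. Shares of all genes called are also not given for that fit or for the runs with 1 library left out. The drop to 21 therefore cannot be told from a general loss of calls. Scaling by library totals moved the median change to -1.25 in WT and -1.33 in KO, beside shifts of all genes to -0.37 and -0.39 and of S phase genes to -1.41 and -1.62, so relative to all genes the medians stayed close; Pttg1 was then at 0.05 in WT and 0.19 in KO. Leaving out 1 library at a time gave 25 to 40 mitosis genes lower in WT (median -1.03 to -0.65, the latter without stimulated WT clone 2) and 26 to 36 lower in KO (median -1.04 to -0.83), with 35 to 45 and 35 to 43 S phase genes lower. In these runs 0 to 0 were called higher or called between genotypes or in the interaction. Without both libraries of KO clone 2, 23 mitosis genes and 31 S phase genes were lower in KO; without WT clone 2, 2 mitosis genes (4.17%, beside 3.15% of all genes) were lower in KO under LPS/IFN-gamma. Signs reversed for Ccna2 in the interaction (-0.63 to 0.02 with 1 library left out, the latter without stimulated WT clone 1) and Pttg1 in WT (-0.14 to 0.76, the former without stimulated WT clone 3); the cause was not tested. With KO 1A and 1B summed, calls over all genes fell from 567 to 73 in KO against WT under LPS/IFN-gamma and from 148 to 16 in medium. They fell from 6638 to 4837 in the KO response and from 5796 to 5088 in the WT response. The number of mitosis genes called in that run is not given here. The lowest total of a mitosis gene was 4292 counts over the 12 libraries.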
